A study of Homo sapiens with 12 samples.

Results

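The contractile apparatus and actin cytoskeleton of CCD-18Co human colon myofibroblasts were followed through 46 genes, taken as the rows of the deposited count table whose symbol equals a name on the list. All 46 were found among 21893 gene rows, and 43 of them were among the 12216 genes with enough reads to test. CCD-18Co is an established line from normal colon, so all 12 libraries come from 1 line grown in medium with foetal bovine serum. Cells were treated for 24 h with 100 nM 1,25(OH)2D3 (1α,25-dihydroxyvitamin D3, the active form of vitamin D), with 100 ng/ml recombinant human Wnt3A, with both agents, or with their vehicles alone (ethanol and a solution of albumin in buffered saline). The authors ran 3 independent experiments, and the titles number the libraries within each group. Libraries with the same number were taken as 1 experiment, so that each experiment supplied 1 library to every group. The comparisons ask how each agent, and the combination, changed these genes, and how far the genes differed between experiments.

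Myofibroblasts lie beneath the intestinal epithelium and pull on the matrix by sliding actin filaments along non-muscle and smooth muscle myosin. Contraction is switched on when the kinase encoded by *MYLK* phosphorylates the myosin regulatory light chain, and is switched off by myosin phosphatase, which *RHOA* restrains through the kinases *ROCK1* and *ROCK2*. Many of the genes are driven by serum response factor (*SRF*) with its cofactors *MKL1*, *MKL2* and myocardin, which sense the pool of actin monomers or mark smooth muscle. *ACTA2*, which encodes smooth muscle α-actin, is the usual marker of a myofibroblast.

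Serum response factor binds the CArG box, a motif of 10 letters with CC, a run of A or T, and GG. It was searched on both strands in the 250 bases upstream of 1 start site per gene, from RefSeq entries of GRCh38.p14. That build is later than the GRCh37 coordinates of the count table. Other start sites of the same genes were not searched, and the site used need not be the main one. RefSeq promoter entries matched 42 of the 46 members, and *TAGLN*, *MYH11*, *MYL9* and *DES* were not matched. The motif was found in 8 of the 42 (19%), namely *ACTC1*, *ACTG2*, *CNN2*, *FLNA*, *MYLK*, *ROCK2*, *SRF* and *TPM4*, against 312 of 27305 promoters in all (1.14%). The windows below show 150 bases that end just before this start site, for 5 members with the motif and for *ACTA2*, the marker gene. *ACTA2* held no exact match upstream of the site searched, which does not speak for its other start sites. The CArG box is in capitals, and each window reads 5′ to 3′ on the strand of its gene (ACTG2 chr2:73892858-73893007, plus strand; SRF chr6:43171119-43171268, plus strand; MYLK chr3:123620549-123620698, minus strand; CNN2 chr19:1026458-1026607, plus strand; FLNA chrX:154374635-154374784, minus strand; ACTA2 chr10:88991338-88991487, minus strand).
ACTG2: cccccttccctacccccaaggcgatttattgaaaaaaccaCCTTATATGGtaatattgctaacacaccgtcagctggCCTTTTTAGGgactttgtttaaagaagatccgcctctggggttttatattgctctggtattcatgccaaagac
SRF: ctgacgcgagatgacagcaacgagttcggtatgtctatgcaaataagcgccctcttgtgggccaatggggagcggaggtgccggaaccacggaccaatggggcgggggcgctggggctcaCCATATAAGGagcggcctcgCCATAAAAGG
MYLK: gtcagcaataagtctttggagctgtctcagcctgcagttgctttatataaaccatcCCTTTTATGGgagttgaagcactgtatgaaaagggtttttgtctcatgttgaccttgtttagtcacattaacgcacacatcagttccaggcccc
CNN2: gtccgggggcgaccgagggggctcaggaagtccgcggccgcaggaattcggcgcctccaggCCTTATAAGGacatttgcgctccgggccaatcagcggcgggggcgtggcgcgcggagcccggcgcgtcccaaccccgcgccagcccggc
FLNA: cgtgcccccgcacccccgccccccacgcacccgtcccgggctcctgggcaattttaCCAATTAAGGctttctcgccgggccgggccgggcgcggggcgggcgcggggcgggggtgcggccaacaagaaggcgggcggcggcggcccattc
ACTA2: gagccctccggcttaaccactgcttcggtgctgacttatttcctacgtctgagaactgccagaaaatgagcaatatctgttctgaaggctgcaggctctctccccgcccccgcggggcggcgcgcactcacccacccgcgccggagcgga
Upstream of the start site searched, *ACTG2* and *SRF* carried the motif at 2 places each, *MYLK*, *CNN2* and *FLNA* at 1 place and *ACTA2* at 0. Which transcript of *MYLK* or *ACTA2* begins at that site was not examined. A direct repeat of the vitamin D response element (DR3, 15 letters) was found in 0 of the 42 upstream regions and in 0.187% of all. The letters CTTTGAT, read by TCF factors, were in 1 member (*CNN2*) against 2.28% of all promoters, CTTTGAA was in 0 against 3.88%, and GGAATG, read by TEAD factors, was in 8 (19%) against 11.9%. A match of letters is a description and not a binding site.

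The deposited values behaved as counts of aligned bases, since 78.2% to 80.9% of the values from 1 to 400 in a library were multiples of the read length of 40. Each value was therefore divided by 40 and rounded, and the resulting read equivalents summed to between 5363668 and 6261100 per library. Levels are given as CPM (read equivalents per 1e6, scaled by TMM). The members together took 2.65% to 3.42% of all read equivalents. As checks of the agents, *CYP24A1*, the vitamin D degrading enzyme, had 0.271 ± 0.246 CPM with vehicle and 263 ± 48.6 with 1,25(OH)2D3, and *AXIN2*, a Wnt target, had 2.16 ± 0.300 and 19.6 ± 3.68 with Wnt3A (mean ± SD, n = 3). The summed level of 8 fibroblast markers was 17200 to 19880 CPM with vehicle and 16540 to 19290 with Wnt3A, and higher without overlap with 1,25(OH)2D3 (21280 to 22420) and with both (20270 to 20920). The sum does not stand for all 8. At an edgeR adjusted p under 0.05, 2 were higher and 1 lower with 1,25(OH)2D3 (median log2 change 0.02). With both, 3 were higher and 2 lower (median 0.04). The markers of interstitial cells of Cajal, *KIT* and *ANO1*, summed to 31.7 to 37.1 CPM with vehicle, 41.7 to 57.7 with 1,25(OH)2D3, 53.7 to 56.1 with Wnt3A and 61.8 to 67.1 with both, with no overlap with vehicle. These 2 genes parted with 1,25(OH)2D3, at log2 changes of 1.08 and -0.58, each with an edgeR adjusted p under 0.05. With Wnt3A the gene raised by 1,25(OH)2D3 had -0.04 and was not called, and the other had 1.14 and passed that threshold. Each agent alone thus raised a different gene of the pair, while with both agents the 2 were higher. The part of these shifts in the results below was not tested. Of the other markers, 2 of 11 smooth muscle markers (*KCNMB1*, *CASQ2*) were at 0 in every library, as were the epithelial genes *KRT20*, *VIL1* and *CDX2*. Bulk RNA cannot tell fewer cells of a type from less RNA per cell.

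Per kilobase of transcript, members of 1 family could differ widely in level. In vehicle libraries *VIM*, the intermediate filament protein vimentin, had 3186 CPM per kb, and the light chain gene *MYL6* had 1591. Among actins, the enteric smooth muscle γ-actin gene *ACTG2* had 342 CPM per kb, *ACTA2* had 107, and the cardiac actin gene *ACTC1* had 0.0419. Among the myosin heavy chains, non-muscle *MYH9* had 298 CPM per kb, non-muscle *MYH10* had 12.4 and smooth muscle *MYH11* had 0.106. Among calponins, *CNN3* had 299.9 CPM per kb, *CNN2* had 124 and smooth muscle *CNN1* had 2.71. These levels use the length of 1 reference transcript per gene and were not tested between genes.

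*MYH11*, *DES* and *ACTC1*, which mark smooth, striated or cardiac muscle, were at or near the floor in every group, and *CNN1* was low, while other smooth muscle genes such as *ACTG2*, *SMTN* and *LMOD1* were well above it. *MYH11* was between 0.320 and 0.998 CPM with vehicle and between 0.369 and 0.794 with both agents, from 9 to 13 read equivalents per group. *DES*, the muscle intermediate filament desmin, had 0 or 1 read equivalent in each library, and *ACTC1* had at most 2 in a group. These 3 members were not tested, and no fold change is given for them. *CNN1* had 6.96, 2.40 and 2.83 CPM with vehicle, 4.61, 3.51 and 2.83 with 1,25(OH)2D3, 4.40, 5.11 and 4.32 with Wnt3A, and 4.43, 2.38 and 3.91 with both, in experiments 1, 2 and 3. Its groups overlapped throughout, and its log2 changes were -0.14 ± 0.27 with 1,25(OH)2D3 and 0.19 ± 0.25 with Wnt3A (SE), with edgeR adjusted p = 0.774 and 0.728.

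1,25(OH)2D3 raised and lowered the contractile genes in about equal number, and with no common direction within most of the roles. Leiomodin 1 (*LMOD1*), which nucleates actin filaments in smooth muscle, and the myosin phosphatase subunit *PPP1R12B* rose most, whereas vimentin (*VIM*) and zyxin (*ZYX*), a LIM protein of focal adhesions and stress fibres, fell most. Of the 43 tested members, 20 were called changed at an adjusted p under 0.05 (9 higher and 11 lower), against 24.2% of all genes tested (13% higher and 11.2% lower). Differences were tested with edgeR's quasi-likelihood test on all 12 libraries with the experiment as a block, adjusted by Benjamini-Hochberg over all 12216 genes. The median log2 change of the members was -0.03, against 0.00157 over all genes. The plot of log2 fold changes shows all 43.

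**Figure D1:**
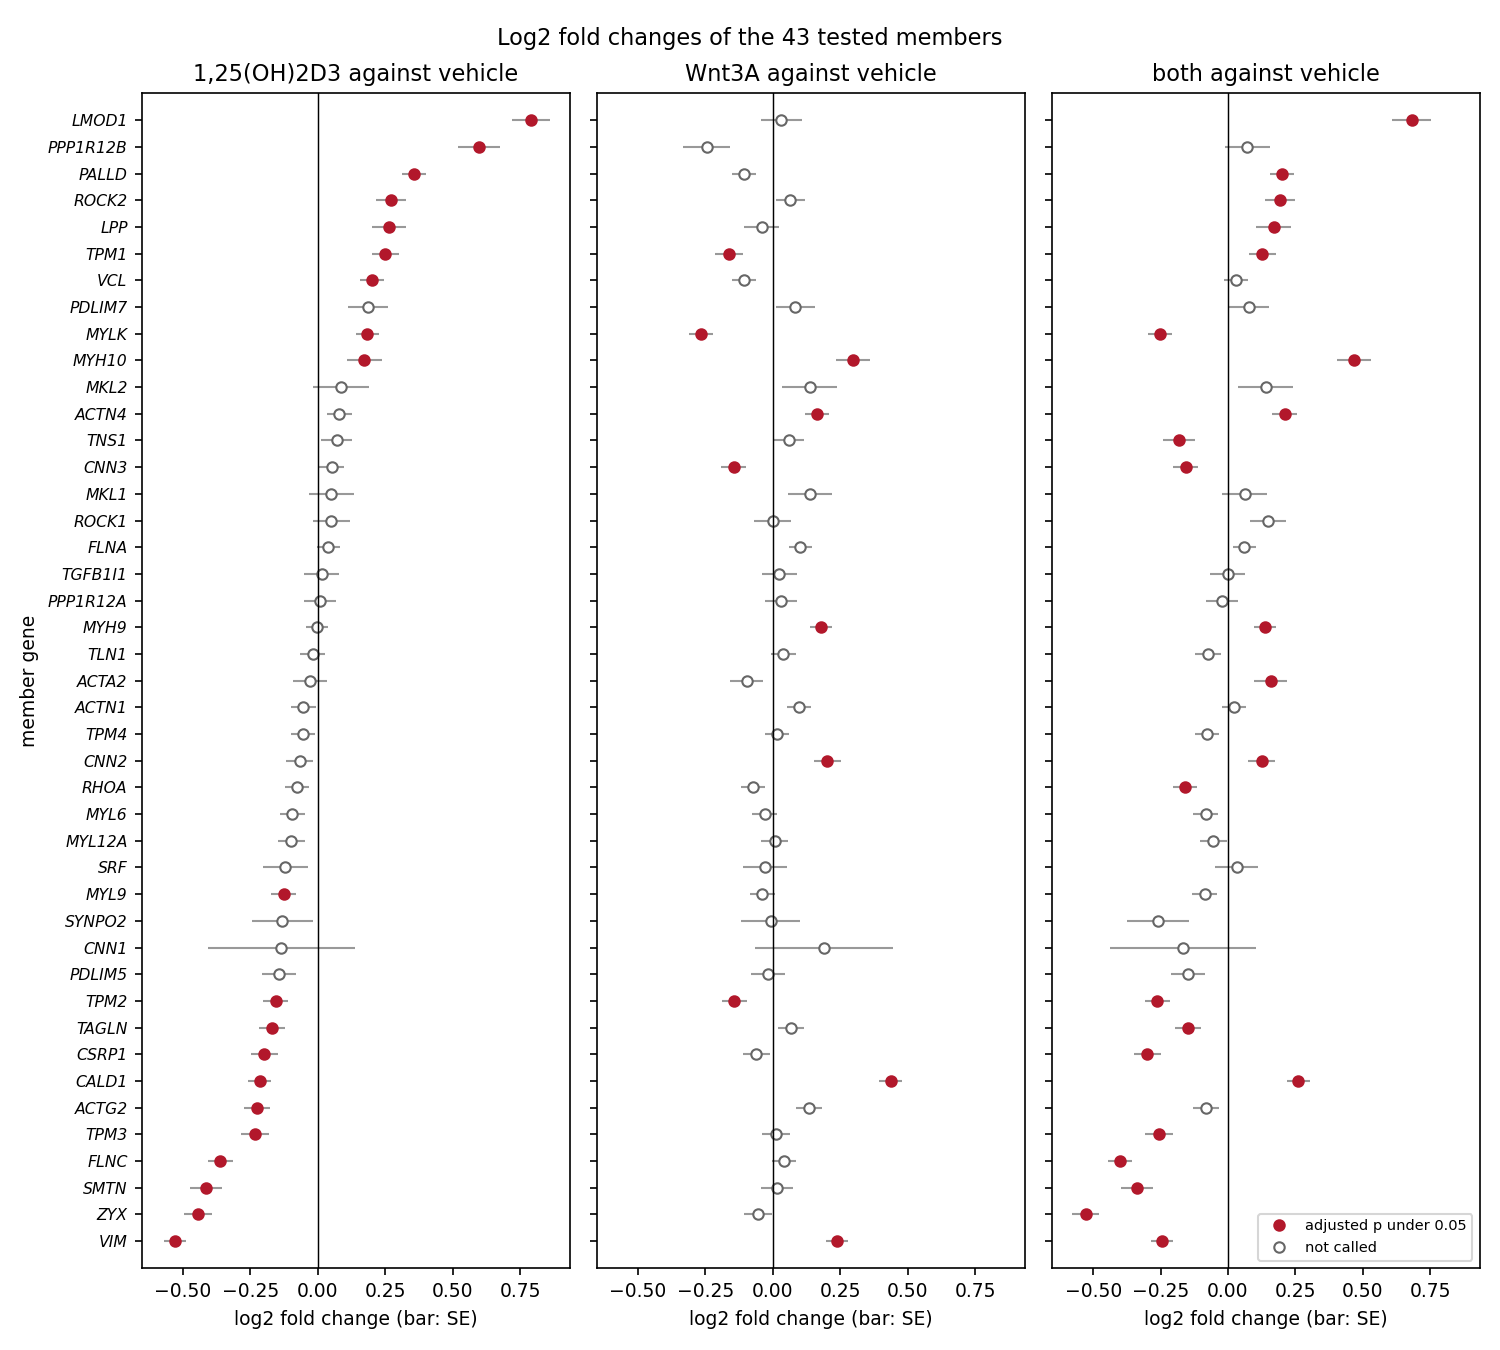
Log2 fold change (x axis, ± SE from edgeR) of each of the 43 tested members (y axis, ordered by the change with 1,25(OH)2D3) for the 3 treatments against the same vehicle libraries. Filled points have an adjusted p under 0.05, and the values run from -0.53 (VIM) to 0.79 (LMOD1) in the panel for 1,25(OH)2D3.

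*LMOD1* had 71.6, 56.5 and 50.1 CPM in vehicle experiments 1, 2 and 3 and 115.8, 103.0 and 88.8 with 1,25(OH)2D3. Every treated library lay above every vehicle library, and the log2 change was 0.79 ± 0.071 (adjusted p = 2.18e-13). With Wnt3A alone *LMOD1* had 70.9, 53.7 and 56.9 CPM, inside the vehicle range, and with both agents 100.0, 92.6 and 91.3, again above all vehicle libraries. *LMOD1* overlaps a non-coding antisense gene, and use of the strand in counting is not given in the sources used here.

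*PPP1R12B* encodes a targeting subunit of myosin phosphatase, which relaxes the actomyosin filament. It had 38.8, 44.6 and 41.1 CPM with vehicle and 68.0, 62.4 and 58.2 with 1,25(OH)2D3, so the groups did not overlap and the log2 change was 0.60 ± 0.079 (adjusted p = 2.02e-08). With Wnt3A it had 37, 37.6 and 30.8 CPM, all below the vehicle libraries, but the change of -0.24 ± 0.087 missed the threshold (adjusted p = 0.0503), although it was called with DESeq2 size factors and with undivided values. With both agents it had 45.2, 45.9 and 40.04 CPM, which overlapped the vehicle range (0.07 ± 0.083) and lay below all libraries with 1,25(OH)2D3 alone (-0.53 ± 0.078, adjusted p = 4.54e-07). The other targeting subunit, *PPP1R12A*, was called in none of the comparisons.

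*VIM* fell from 7505, 6551 and 6533 CPM with vehicle to 4964, 4678 and 4598 with 1,25(OH)2D3, a log2 change of -0.53 ± 0.040 (adjusted p = 3.26e-16). Wnt3A moved it the other way, to 8276, 7964 and 7990 CPM (0.24 ± 0.040, adjusted p = 6.33e-06). Neither treated group overlapped the vehicle group, and the libraries with both agents, at 6080, 5660 and 5609 CPM, lay between those of the single agents. *VIM* was the most abundant member. Without *VIM* the other members took 2.18% to 2.59% of the read equivalents of a library.

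*ZYX* had 525.3, 457.4 and 414.9 CPM with vehicle and 360.9, 316.2 and 349.2 with 1,25(OH)2D3 (log2 change -0.44 ± 0.052, adjusted p = 6.36e-10). All 3 treated libraries lay below the lowest vehicle library. With Wnt3A it had 512.4, 411.3 and 422.6 CPM (-0.06 ± 0.051, adjusted p = 0.575), which overlapped vehicle, and with both agents 352.3, 291.0 and 325.3 (-0.53 ± 0.052, adjusted p = 1.66e-12).

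**Figure D2:**
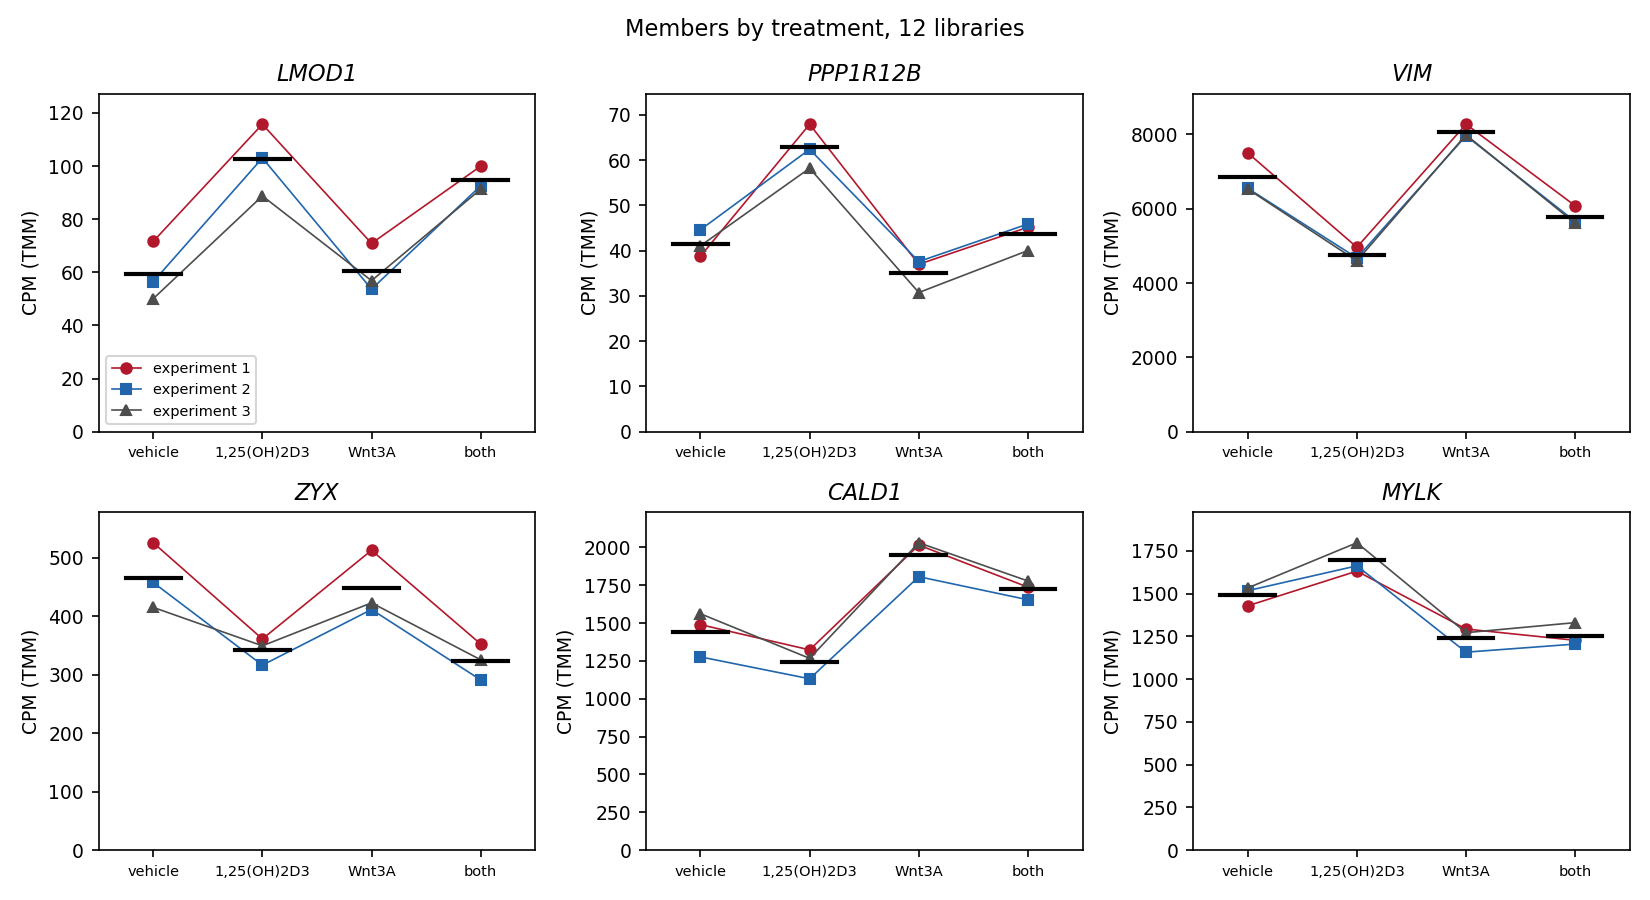
CPM (y axis, TMM scaled, from 0) of 6 members in the 12 libraries by treatment (x axis). Points of 1 experiment are joined by a line and black bars are group means. LMOD1 and PPP1R12B had their highest mean with 1,25(OH)2D3 (102.5 and 62.9 CPM), VIM and CALD1 with Wnt3A (8077 and 1950 CPM).

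The remaining members called with 1,25(OH)2D3 showed smaller changes, and members with related roles often parted. Among proteins of adhesions and stress fibres, *PALLD* (palladin, an actin crosslinker) rose by 0.36, *LPP* by 0.26 and *VCL* (vinculin) by 0.20 on the log2 scale, whereas the muscle LIM gene *CSRP1* had -0.20. Among side-binding proteins *SMTN* (smoothelin) had -0.42, *CALD1* (caldesmon) -0.22 and *TAGLN* (transgelin) -0.17. The crosslinker filamin C (*FLNC*) had -0.36 while filamin A (*FLNA*) had 0.04 ± 0.044 and was not called.

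In the motor group *ROCK2* rose by 0.27, *MYLK* by 0.18 and *MYH10* by 0.17, and *MYL9*, the regulatory light chain, had -0.13. Tropomyosins, which lie along the actin filament, split in the same way, with *TPM1* at 0.25 against *TPM3* at -0.23 and *TPM2* at -0.16. *ACTG2* had 660.5, 422.7 and 454.4 CPM with vehicle and 505.2, 369.0 and 428.6 with 1,25(OH)2D3. These ranges overlapped, although it was lower in each of the 3 experiments (-0.23 ± 0.049, adjusted p = 0.00034). With Wnt3A *ACTG2* had 686.6, 461.6 and 532.3 CPM and with both 565.1, 402.0 and 475.4, and neither was called against vehicle (0.13, adjusted p = 0.0558, and -0.08, adjusted p = 0.212).

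The block carried part of these calls. With no replicate block, 10 of the 20 were called, and *ACTG2* (adjusted p = 0.567), *TAGLN* (0.633), *CALD1* (0.0549), *MYLK* (0.0602), *CSRP1*, *VCL* and *TPM1* were among those lost. With each library left out in turn 15 of the 20 kept their call. Without vehicle replicate 1 *TAGLN*, *TPM2*, *MYH10*, *MYL9* and *LPP* were not called (*TAGLN* -0.11, adjusted p = 0.114), *MYL9* was also lost without 1,25(OH)2D3 replicate 1 or 2, and the call of *MYH10* ended with any of 9 of the 12 libraries out (0.10, adjusted p = 0.357, without vehicle replicate 1).

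Wnt3A changed fewer of the members, and raised caldesmon, *MYH10* and vimentin most. *CALD1*, which binds the side of actin filaments and holds myosin off, rose most, *MYH9* and *MYH10* also rose, and *MYLK*, the kinase that activates myosin, fell. Of the 43 members 10 were called (6 higher and 4 lower), against 13.5% of all genes tested (7.37% higher and 6.18% lower), and the median log2 change was 0.02 against -0.0036 over all genes. With no replicate block 4 were called. The vehicle libraries are the same as in the comparison with 1,25(OH)2D3.

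*CALD1* had 1489, 1276 and 1561 CPM with vehicle and 2015, 1806 and 2030 with Wnt3A. The groups did not overlap, and the log2 change was 0.44 ± 0.043 (adjusted p = 6.02e-12). With 1,25(OH)2D3 it had 1323, 1132 and 1267 CPM, lower than vehicle within each experiment but overlapping across them (-0.22 ± 0.043, adjusted p = 0.000105). With both agents it had 1737, 1654 and 1778 CPM, above all vehicle libraries (0.26 ± 0.043, adjusted p = 2.07e-06).

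*MYLK* had 1429, 1517 and 1533 CPM with vehicle, 1632, 1662 and 1797 with 1,25(OH)2D3, 1293, 1158 and 1272 with Wnt3A and 1227, 1205 and 1330 with both. The libraries with Wnt3A, alone or with 1,25(OH)2D3, were all below the vehicle range, and those with 1,25(OH)2D3 alone were all above it. Its log2 changes were 0.18 ± 0.044 with 1,25(OH)2D3 (adjusted p = 0.00113), -0.27 ± 0.044 with Wnt3A (4.71e-06) and -0.25 ± 0.044 with both (6.13e-06). *MYLK* overlaps 4 non-coding genes on the other strand.

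*MYH10*, non-muscle myosin heavy chain IIB, had 86.3, 95.2 and 105.6 CPM with vehicle and 120.1, 112.6 and 120.0 with Wnt3A (0.30 ± 0.064, adjusted p = 0.000401), with no overlap. *CNN2* (0.20), *MYH9* (0.18) and the crosslinker *ACTN4* (0.16) also rose, and *TPM1* (-0.16), *CNN3* (-0.14) and *TPM2* (-0.14) fell. None of the 9 members with roles in adhesions or LIM proteins passed the test with Wnt3A. With each library left out in turn *CNN2*, *CALD1*, *MYH9*, *MYH10*, *MYLK* and *VIM* stayed called. *CNN3* and *ACTN4* were not called without vehicle replicate 3 or Wnt3A replicate 1 or 3, nor *TPM1* and *TPM2* without vehicle replicate 1 or Wnt3A replicate 1 or 2, nor *CNN3* without Wnt3A replicate 2, and without vehicle replicate 1 the count was 13.

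With both agents some members kept the change of 1 agent and others did not. *LMOD1* stayed high and *ZYX*, *FLNC* and *SMTN* stayed low, as with 1,25(OH)2D3, while *MYH10* and *CALD1* were raised and *MYLK* was lowered, as with Wnt3A. *PPP1R12B* and *VCL*, called higher with 1,25(OH)2D3, were not called with both (0.07 and 0.03). In all, 23 of the 43 members were called against vehicle (11 higher and 12 lower), against 33.4% of all genes (17.3% higher and 16.1% lower), and 12 with no replicate block. Their median log2 change was -0.02, against 0.0016 over all genes. *MYH10* reached 128.2, 123.7 and 145.0 CPM (0.47 ± 0.063, adjusted p = 2.18e-08), the highest of its 4 groups in each experiment.

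*FLNC* had 867.4, 927.6 and 941.6 CPM with vehicle and 697.6, 692.2 and 682.2 with both agents, well apart (-0.40 ± 0.045, adjusted p = 1.55e-10). *SMTN* had 176.3, 159.0 and 158.5 CPM with vehicle and 148.1, 122.6 and 120.9 with both, again without overlap (-0.34 ± 0.059, adjusted p = 6.39e-06). *TPM2*, *TPM3* and *CSRP1* were also lower (-0.26, -0.26 and -0.30). *TNS1* (tensin 1, a link between integrins and actin) and *RHOA* were called only here among the 3 comparisons with vehicle, at -0.18 and -0.16, and *RHOA* was not called against either single agent.

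The count for both agents rested partly on single libraries. With each library left out in turn 14 of the 23 calls were kept. *TAGLN*, *LPP* and *ROCK2* were lost without vehicle replicate 1, *ACTA2*, *CNN2*, *TPM1* and *TNS1* without vehicle replicate 2 or 3, *CNN2* and *TPM1* also without 1,25(OH)2D3 replicate 2 or 3 or Wnt3A replicate 3, and *CNN3* and *RHOA* without replicate 1 of the combination. Without replicate 2 or 3 of the combination *ACTA2*, *CNN2*, *TPM1* and *TNS1* were lost again, with *LPP* and *ROCK2* in the former case and *RHOA* in the latter, and without its replicate 1 so were *TAGLN*, *CNN2* and *LPP*.

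Adding 1,25(OH)2D3 to Wnt3A lowered 10 and raised 8 of the 43 members (18 called, against 22% of all genes with 11.4% higher and 10.6% lower, and 9 with no replicate block). *LMOD1* rose by 0.65 and *PALLD* by 0.31, and *VIM* (-0.48), *ZYX* (-0.47), *FLNC* (-0.44) and *SMTN* (-0.35) fell. *TNS1* had 182.2, 188.7 and 159.6 CPM with Wnt3A and 150.1, 159.2 and 140.0 with both, with no overlap (-0.24 ± 0.059, adjusted p = 0.0015). Of the 18, 11 kept the call with each library left out in turn, and *TNS1* was lost without Wnt3A replicate 1, *VCL*, *MYH10* and *LPP* without Wnt3A replicate 2, *VCL*, *MYH10* and *PPP1R12B* without Wnt3A replicate 3. Without replicate 1 of the combination *TAGLN*, *CALD1*, *MYH10* and *LPP* were lost, without its replicate 2 *VCL* and *LPP*, and without its replicate 3 *MYH10*.

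Adding Wnt3A to 1,25(OH)2D3 raised 8 members and lowered 6 (14 called, against 14.8% of all genes with 7.71% higher and 7.12% lower, and 6 with no replicate block). *CALD1* (0.48), *MYH10* (0.29) and *VIM* (0.28) were higher, and *PPP1R12B* (-0.53), *MYLK* (-0.44) and *TNS1* (-0.25) were lower. These 6 were also the ones called with each library left out in turn. *ACTN4* was lost without 1,25(OH)2D3 replicate 1 or 2 or any replicate of the combination, *ACTG2* without 1,25(OH)2D3 replicate 1 or 2 or replicate 2 or 3 of the combination, *ACTA2* without 1,25(OH)2D3 replicate 1 or 3 or replicate 2 or 3 of the combination, and *PALLD* without 1,25(OH)2D3 replicate 3 or replicate 1 or 3 of the combination. *MYH9* was lost without 1,25(OH)2D3 replicate 1 or replicate 2 of the combination, *CNN2* without 1,25(OH)2D3 replicate 1, *VCL* without replicate 1 or 3 and *CNN3* without replicate 1 of the combination, where the counts were 9 to 12.

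The interaction asks whether the combined change differs, as log2 values, from what the 2 agents add up to when given alone. None of the 43 members was called (0, against 0.147% of all genes with 0.115% higher and 0.0327% lower) by edgeR, with or without the block, or by DESeq2 with it. At an unadjusted p under 0.05 there were 4 members, against 708 of 12216 genes. *TNS1* had the smallest p (-0.31 ± 0.083, unadjusted p = 0.000442, adjusted p = 0.174), followed by *ACTA2* (0.285 ± 0.087, unadjusted p = 0.00185, adjusted p = 0.365), which was called when vehicle replicate 3 was left out. *MYLK* (-0.17) and *PPP1R12B* (-0.28) were the other 2.

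The α-actin marker *ACTA2* had 194.9, 108.0 and 128.8 CPM with vehicle, 167.8, 117.8 and 132.7 with 1,25(OH)2D3, 167.7, 99.7 and 133.5 with Wnt3A, and 189.8, 128.3 and 157.9 with both. All 4 groups overlapped, and the spread between experiments within a group was wider than any difference between group means. Against vehicle the log2 changes were -0.03 ± 0.062 with 1,25(OH)2D3 (adjusted p = 0.788), -0.10 ± 0.062 with Wnt3A (0.361) and 0.16 ± 0.060 with both (0.0371). The call for both was lost with DESeq2 and the block (adjusted p = 0.158), with no replicate block (0.773) and without vehicle replicate 2 or 3 or replicate 2 or 3 of the combination, where the change was 0.10 to 0.14. Against Wnt3A alone the combination had 0.26 ± 0.061 (adjusted p = 0.00118), higher in each of the 3 experiments and called with each library left out in turn, but not with no replicate block. *ACTA2* overlaps *STAMBPL1*, *FAS* and an antisense RNA.

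*TAGLN* had 719.9, 486.2 and 541.6 CPM with vehicle, 602.5, 427.9 and 517.5 with 1,25(OH)2D3, 706.2, 502.5 and 616.8 with Wnt3A and 579.0, 449.0 and 539.5 with both. Groups overlapped in every comparison. By edgeR with the block *TAGLN* was called lower with 1,25(OH)2D3 (-0.17, adjusted p = 0.00607) and with both (-0.15, adjusted p = 0.0141). It was also lower with both against Wnt3A alone (-0.21, adjusted p = 0.00055). In each of these comparisons it was lower in all 3 experiments, but no such call held with no replicate block. With Wnt3A alone it was not called. *SRF* had 47.1, 49.0 and 43.9 CPM with vehicle, 41.7, 40.6 and 46.7 with 1,25(OH)2D3, 46.3, 45.3 and 45.7 with Wnt3A and 49.6, 45.4 and 48.5 with both. It was not called in any comparison, and its changes against vehicle were between -0.12 and 0.03 with SE of 0.080 to 0.082.

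The *SRF* cofactor gene *MKL1* (also *MRTFA*) had 44.3, 39.8 and 41.4 CPM with vehicle, 40.5, 40.1 and 49.8 with 1,25(OH)2D3, 47.1, 45.6 and 45.4 with Wnt3A and 43.2, 42.1 and 45.7 with both. The libraries with Wnt3A alone lay above all vehicle libraries, but the change of 0.14 ± 0.083 was not called (adjusted p = 0.33). *MKL2* (also *MRTFB*) had 23.3, 25.3 and 29.1 CPM with vehicle, 29.0, 27.2 and 26.0 with 1,25(OH)2D3, 26.6, 31.6 and 27.4 with Wnt3A and 26.6, 29.1 and 29.9 with both, overlapping throughout. It was not called in any comparison either.

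Several actin and actin-binding genes of smooth muscle differed between the 3 experiments in the same order whatever the treatment. *ACTA2* averaged 180.1 CPM over the 4 libraries of experiment 1, 113 in experiment 2 and 138 in experiment 3, and *ACTG2* averaged 604, 414 and 473. *TAGLN* (652, 466 and 554 CPM) and *CSRP1* (305, 217 and 237) followed the same order. In all 4 genes experiment 1 was highest and experiment 2 lowest in each of the 4 treatment groups.

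**Figure D3:**
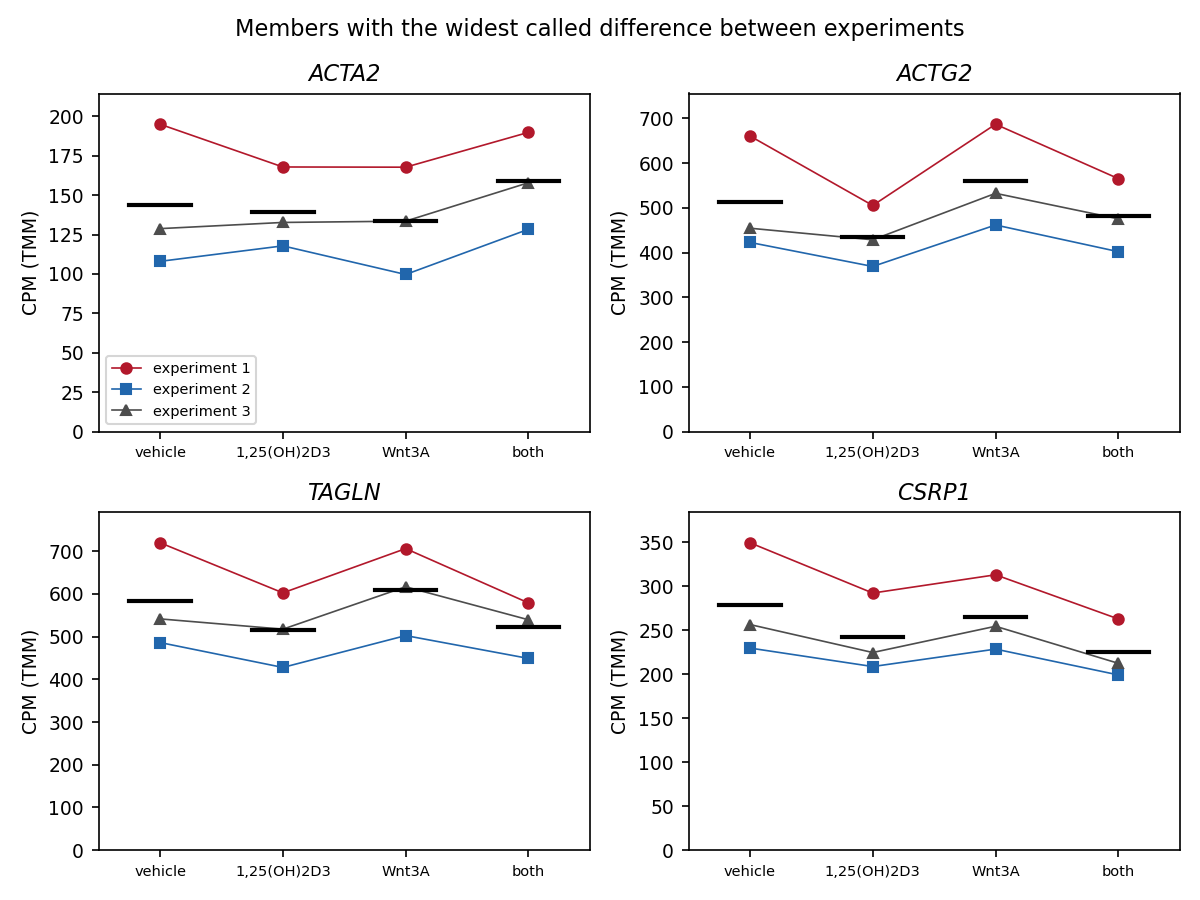
CPM (y axis, TMM scaled, from 0) of ACTA2, ACTG2, TAGLN and CSRP1 in the 12 libraries by treatment (x axis), with the points of 1 experiment joined by a line and group means as black bars. The line of experiment 1 lies above the other 2 at every treatment, and that of experiment 2 lies lowest.

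The 2 experiment terms were tested together in the same edgeR fit, and 21 of the 43 members were called, against 12.6% of all genes tested. The range over experiments, as the span of the 3 fitted log2 levels, was 0.67 for *ACTA2* (adjusted p = 2.37e-13), 0.54 for *ACTG2* (9.06e-14), 0.49 for *CSRP1* (3.86e-12) and 0.48 for *TAGLN* (4.94e-12). Then came *LMOD1* (0.33), *TPM2* (0.29), *MYL9* (0.28), *MYL6* (0.26), *PDLIM7* (0.26), *PDLIM5* (0.25), *ZYX* (0.25), *TPM1* (0.25), *TGFB1I1* (0.23), *TPM4* (0.23), *TNS1* (0.23), *MYL12A* (0.21), *VCL* (0.19), *CALD1* (0.18), *PALLD* (0.15), *ACTN1* (0.14) and *VIM* (0.12). *CNN1* had a span of 0.62 at its low level and was not called (adjusted p = 0.0875). The median span of the 43 was 0.147, against 0.150 over all genes.

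The order of the experiments was shared by many members. Experiment 1 was the highest in all 4 treatment groups for 16 of the 43 members (37.2%), against 4.67% of all genes tested, and experiment 2 was the lowest in all 4 for 13 (30.2%), against 3.24%. These shares are counts and were not tested, and since the genes were listed with their spread between experiments already known, they describe that spread and are no independent evidence of it, nor is the count of 21 called. With library totals in place of TMM the counts were 17 and 12, and with DESeq2 size factors 16 and 14. Of the 21 called members, 17 had lower levels in both later experiments than in experiment 1, whereas 562 of 1537 called genes did so overall. The exceptions were *PDLIM5*, *CALD1* and *PALLD*, lowest in experiment 2 alone, and *TNS1*, which was highest in experiment 2.

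**Figure D4:**
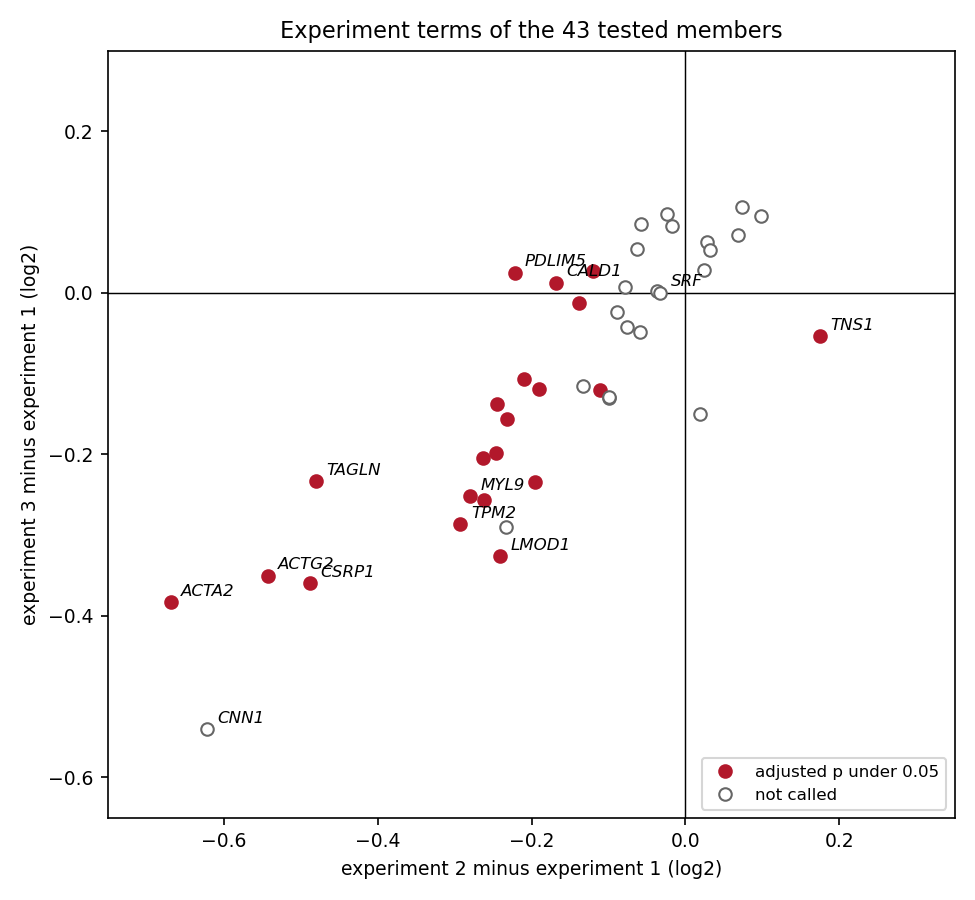
Fitted log2 difference of experiment 2 from experiment 1 (x axis) and of experiment 3 from experiment 1 (y axis) for the 43 tested members, with filled points for an adjusted p under 0.05. Most called members lie in the lower left, with ACTA2 at -0.67 and -0.38, and TNS1 (0.17 and -0.05) is on the right.

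By role, the experiment term was called for 2 of 2 tested actins, 3 of 4 tropomyosins, 7 of 9 adhesion and LIM proteins, 3 of 7 side-binding proteins, 3 of 11 genes of the motor and its regulation, 2 of 6 crosslinkers and *VIM*. It was called for 0 of the 3 transcription genes, with *SRF* averaging 46.2, 45.1 and 46.2 CPM in experiments 1, 2 and 3. *FLNC* and *SRF* had the narrowest spans (0.03 each). Of the 7 tested members with a CArG box upstream 2 were called (*ACTG2* and *TPM4*), against 17 of 34 with an entry and no exact match. *ACTA2* and *CSRP1* were among the latter. This split rests on 1 start site per gene and was not tested, so it cannot show which genes lack the motif at other start sites.

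Markers of other cells were read beside this result. The summed level of 11 smooth muscle markers was 738 to 825 CPM in experiment 1, 567 to 592 in experiment 2 and 571 to 644 in experiment 3, but 6 of those 11 are members. The other 5 (*MYOCD*, *KCNMB1*, *HSPB6*, *CASQ2*, *PLN*) summed to 36.7 to 85.2, 30.9 to 96.4 and 27.9 to 66.9 CPM, which overlapped. Of these, *KCNMB1* and *CASQ2* had no reads in any library, and most of the sum was *MYOCD*, which changed with treatment. Each range pools all treatments, so the overlap cannot show whether these markers were alike between experiments. *MYOCD* by itself differed between experiments, as given below. Fibroblast markers, pooled over treatments in the same way, summed to 19290 to 21280, 18030 to 21800 and 16540 to 22420 CPM. The fibroblast sum also differed with treatment, so its ranges carry the same limit. What distinguished the experiments is not given in the sources used here, and the part of other cells in the result was not tested. With experiment 1 left out 12 members were called, and without experiment 2 also 12, and with experiment 3 left out 19.

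Beyond the members, 4 further lists around the same machinery held 166 genes, of which 153 were tested and 0 are members. The list of actin turnover (51 genes that nucleate, cap or sever filaments) had 5 higher and 18 lower with 1,25(OH)2D3 (all genes 13% and 11.2%) and a median of -0.09. With Wnt3A it had 4 higher and 5 lower (all genes 7.37% and 6.18%), and with both 6 higher and 21 lower (all genes 17.3% and 16.1%). No list was tested as a whole. *SSH2*, a phosphatase that activates cofilin, had 44, 53.6 and 57.6 CPM with vehicle, 79.2, 98.6 and 93.5 with 1,25(OH)2D3, 78.4, 84.1 and 84.5 with Wnt3A and 129.1, 146.6 and 140.6 with both. It rose with each agent (0.80 and 0.67) and most with both (1.42 ± 0.067, adjusted p = 5.84e-25), with no overlap with vehicle.

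*FMNL2*, a formin that elongates filaments, behaved alike, at 0.61, 0.64 and 1.47 in the same comparisons. *COTL1*, which binds actin filaments, fell with 1,25(OH)2D3 (-0.54) and with both (-0.76), and *CAPG*, a capping protein, fell with 1,25(OH)2D3 (-0.59). *TMOD1*, which caps the pointed end, fell with Wnt3A (-1.19 ± 0.16) and with both (-0.76). *DIAPH3*, another formin, rose with Wnt3A (0.56).

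Genes from a list of further regulators of myosin also changed. *CDC42EP3*, an effector of CDC42, rose from 298 to 506 CPM with 1,25(OH)2D3 (0.76 ± 0.048) and stayed there with both (0.73), and *ARHGAP5* (0.42) and *PPP1CB*, a catalytic subunit of myosin phosphatase (0.37), also rose. *PPP1R14B* had -0.40 with 1,25(OH)2D3 and -0.43 with both. With Wnt3A *MYO10*, a motor of filopodia (0.54), and *CIT*, citron kinase (0.49), rose, and *RND3*, an antagonist of RHOA, fell (-0.35, from 2384 to 1868 CPM). *CIT* was also higher with both (0.57), and *ARHGAP24* was lower (-0.66).

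Genes of focal adhesions (37 tested) were called in 10 and 9 cases with 1,25(OH)2D3, 3 and 14 with Wnt3A, and 6 and 17 with both (higher and lower), against the shares over all genes given for the actin turnover list. *TNS3*, a tensin like *TNS1*, had 503.3, 568.8 and 540.6 CPM with vehicle, 766.1, 857.3 and 903.8 with 1,25(OH)2D3, and 388.2, 402.1 and 381.6 with Wnt3A. The 3 groups did not overlap, with 0.65 ± 0.047 for 1,25(OH)2D3 and -0.46 ± 0.048 for Wnt3A, and with both *TNS3* was near vehicle (569 against 538 CPM, 0.08, not called). *SVIL* (supervillin) fell with Wnt3A (-0.60), as did *FHL1* (-0.42) and *FHL2* (-0.39).

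*LIMA1*, which crosslinks and stabilises stress fibres, fell with 1,25(OH)2D3 (-0.70) and with both (-0.83), and *NES* (nestin) fell by 0.93 and 0.61 on the log2 scale. *VASN* had -0.54 with both.

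The list of *SRF* and YAP targets and cofactors (30 tested) had 7 higher and 12 lower with 1,25(OH)2D3 (all genes 13% and 11.2%), 3 and 12 with Wnt3A (7.37% and 6.18%), and 6 and 16 with both (17.3% and 16.1%), while *SRF* itself was not called. Myocardin (*MYOCD*), the cofactor that marks smooth muscle, had 37.2, 51.8 and 31.6 CPM with vehicle, 77.4, 87.0 and 58.6 with 1,25(OH)2D3, 25.6, 21.9 and 17.9 with Wnt3A and 45.0, 54.8 and 41.3 with both. It rose with 1,25(OH)2D3 (0.89 ± 0.082, adjusted p = 5.64e-13) and fell with Wnt3A (-0.87 ± 0.10, adjusted p = 1.30e-09), neither group overlapped vehicle, and with both it was 0.23 higher (adjusted p = 0.0368) with overlap. It differed between experiments (0.52, adjusted p = 5.33e-06), but was highest in experiment 2 in 3 of 4 groups and in experiment 1 with Wnt3A, unlike *ACTA2*, *ACTG2* and *TAGLN*.

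**Figure D5:**
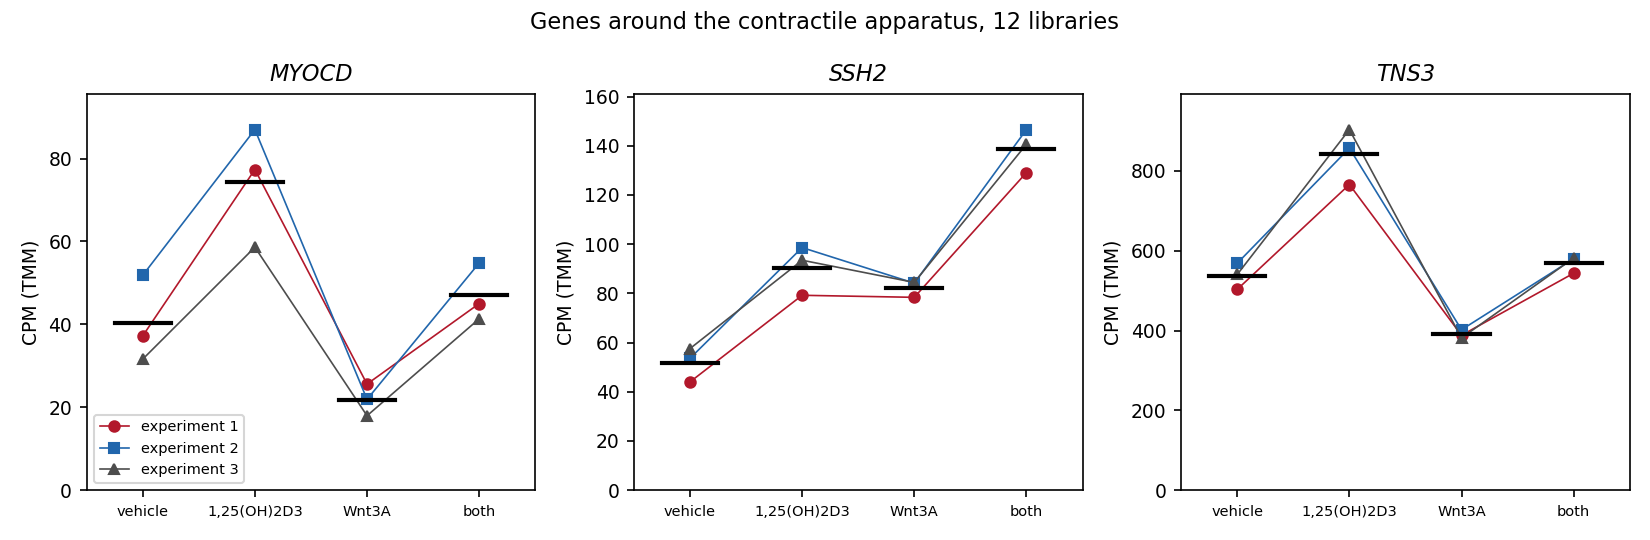
CPM (y axis, TMM scaled, from 0) of MYOCD, SSH2 and TNS3, which are not among the 46 genes, in the 12 libraries by treatment (x axis), with the points of 1 experiment joined by a line and group means as black bars. MYOCD and TNS3 were highest with 1,25(OH)2D3 (74.3 and 842 CPM) and lowest with Wnt3A (21.8 and 391 CPM), and SSH2 was highest with both (139 CPM).

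*FOSB* fell from 8.40 CPM with vehicle to 4.15 with 1,25(OH)2D3 (-1.01 ± 0.21), 4.96 with Wnt3A (-0.76) and 3.05 with both (-1.44), and *FOS*, at 2.96 CPM with vehicle, fell with Wnt3A (-1.31 ± 0.35, adjusted p = 0.00479) and with both (-2.21 ± 0.40). *TUFT1* was lower in all 3 comparisons (-0.74, -0.47 and -0.64). The YAP target *ANKRD1* fell with 1,25(OH)2D3 (-0.76), from 44 to 25.8 CPM, and *WWTR1*, which encodes the coactivator TAZ, had -0.59 with both.

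Reads could be shared with other genes for a few members. Of the 40-base windows of the reference transcript, 32.5% were found elsewhere for *TPM4* (mainly pseudogenes), 16.7% for *ROCK1* (*ROCK1P1*) and 16.6% for *MYL12A* (*MYL12B*), against 0% for *ACTA2* and 0.821% for *ACTG2*. *MYL6* overlaps *MYL6B* on the same strand. On the other strand *TAGLN* overlaps *PCSK7*, *ZYX* overlaps *EPHA1*, *MYH10* overlaps *NDEL1*, *PALLD* overlaps *DDX60L* and *CBR4*, *ACTN4* overlaps *CAPN12* and *MYH11* overlaps *NDE1*. The levels of all these members are uncertain to that extent.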

How the data were processed

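The authors took RNA from 3 independent experiments and made stranded polyA+ libraries. Single reads of 40 bases were aligned to GRCh37/hg19 (CASAVA 1.8 per the submitters' processing notes). The deposited table holds raw counts, 1 whole number for each gene and library, which the authors did not normalize. How reads were assigned to genes, and with which annotation and strand setting, is not given in the sources used here. Values were divided by 40, rounded and filtered with filterByExpr (minimum count 10), which kept 12216 genes. Tests used edgeR 4.0.16 (TMM, robust quasi-likelihood F test) in R 4.3.3 with group and experiment as terms and a threshold of 0.05 after Benjamini-Hochberg adjustment. SE is the absolute log2 fold change divided by the square root of F.

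The titles number the libraries within each group. Deviations from the group means over 10702 genes correlated at 0.131 to 0.372 in 18 same-numbered pairs of libraries and at -0.259 to -0.00196 in 36 other pairs, so the experiment number was taken to pair the samples. Alternatives were DESeq2 1.42.0 with and without the block, edgeR without it, other scalings, no count filter, only the groups compared, undivided values, a threshold of 0.01, and each library or experiment left out.

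The members and lists were chosen with earlier results of these data known, the difference between experiments among them. Named in full were members called with a log2 change of at least 0.5 in size, a fixed set of markers and *SRF* genes (*ACTA2*, *ACTG2*, *TAGLN*, *CNN1*, *MYH11*, *DES*, *VIM*, *SRF*, *MKL1*, *MKL2*), and from each further list up to 4 called genes with the widest change per comparison. *CALD1*, *MYLK*, *MYH10*, *FLNC*, *SMTN*, *TNS1*, *SSH2*, *TNS3* and *MYOCD* are given by library after their values were seen. The fit was tested on simulated data. Promoter entries came from RefSeq, with 1 start site used per gene. Results that need items withheld for evaluation are not reported here.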

Additional observations from a re-analysis of the deposited data

How the results depend on the processing

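No called member turned direction under any alternative. With no replicate block, counts of called members fell to 10 with 1,25(OH)2D3, 4 (edgeR) or 5 (DESeq2) with Wnt3A, 12 with both, 9 or 8 for both against Wnt3A and 6 for both against 1,25(OH)2D3, and counts over all genes fell from 2959, 1655, 4082, 2685 and 1812 to 1791, 1013, 2926, 1642 and 1127 (edgeR). Without the block, variation between experiments counts as error. With a library or experiment left out, counts ranged from 16 to 22 with 1,25(OH)2D3, 6 to 13 with Wnt3A, 15 to 24 with both, 13 to 21 for both against Wnt3A, 7 to 15 for both against 1,25(OH)2D3 and 12 to 24 between experiments. The interaction called 0 members except 1 (*ACTA2*) without vehicle replicate 3. The lowest counts came without experiment 2 in each comparison between treatments, equalled without vehicle replicate 1 for 1,25(OH)2D3.

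Calls against vehicle were also followed for *ACTA2*, *ACTG2*, *TAGLN*, *VIM*, *LMOD1*, *PPP1R12B*, *ZYX*, *CALD1*, *MYLK*, *MYH10*, *SMTN*, *FLNC* and *PALLD*. Among these log2 fold changes, 23 values lost the call with libraries left out and 25 under other settings. Another 412 and 236 stayed on their side of the threshold, called or not. The losses concern *ACTA2* and *TAGLN* with both and *TAGLN*, *ACTG2*, *CALD1*, *MYLK* and *MYH10* with 1,25(OH)2D3. *TNS1* and the other members given by library were not in this count.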
